A study of Mus musculus with 10 samples.

Results

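SOX2 was removed from mouse embryonic stem cells for 1 h, and the transcription made in a short labelling pulse was compared with that of untreated cells. The comparison uses 4 of the 10 nascent RNA libraries of a depletion time course, the 2 libraries taken 1 h after depletion (1 hpd) and the 2 untreated ones (NT). Of 40779 transcribed units (TUs) in the count table, the 28459 with more than 10 fragments in at least 2 of the 10 libraries were tested, and 14997 of these carried a gene symbol.

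All libraries came from E14 embryonic stem cells of genotype SOX2-FKBP, in which SOX2 is fused to the FKBP degron tag. The cells grew without serum on gelatin, in a medium with N-2 and B-27, LIF, the MEK inhibitor PD0325901 and the GSK3 inhibitor CHIR99021, and NT cells and depleted cells shared all of this. Cells at 1 hpd had received 500 nM dTAG-13, the degrader compound used with FKBP-tagged proteins. NT cells received the solvent DMSO. Before RNA isolation all cells were given 2 mM 4-thiouridine (4SU) for 10 min, and RNA that had taken up 4SU was fragmented, biotinylated, captured on streptavidin beads and sequenced (TTchem-seq). The cells are 1 engineered line, and the labels do not say whether the 2 libraries of a group came from separate cultures, so each p-value measures the spread between these libraries, which may be technical.

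SOX2 is an HMG-box transcription factor that binds DNA together with OCT4 (Pou5f1) at many enhancers of pluripotent cells. In stem cells kept in LIF with both inhibitors, a network of naive pluripotency factors, among them NANOG, ESRRB, KLF2, KLF4, PRDM14 and TFCP2L1, holds the cells in an undifferentiated state. Labelling with 4SU reports RNA made during the pulse, so a value here is a rate of synthesis over a TU relative to all labelled RNA of the library and not an amount of stable mRNA.

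The 4 libraries held 13053099 to 17704268 fragments on TUs. Replicates correlated at r = 0.985 (NT) and r = 0.99 (1 hpd) across TUs on the log2 CPM scale, where CPM is the fragment count of a TU after TMM scaling to a common library size. No spike-in was used here, so a shift common to all TUs would not be seen. Transcription of Sox2 itself is no check of the depletion, which acts on the protein. The TU that carries its name, which runs for 44 kb (chromosome 3, 34649994 to 34693958, plus strand, GRCm38), gave 243 and 283 CPM in the NT libraries and 229 and 255 CPM at 1 hpd (log2 fold change -0.12 ± 0.11, adjusted p 0.62), and the groups overlapped.

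After 1 h, 611 TUs rose and 1026 fell at an adjusted p under 0.05 in edgeR's quasi-likelihood test, which is 2.15% and 3.61% of those tested. The falls were the larger changes, with 617 TUs down (2.17%) and 113 up (0.397%) by more than 2-fold. The 1637 called TUs had both 1 hpd libraries on the same side of both NT libraries, a pattern that 49.6% of all tested TUs also showed. Genes in this fit were evenly divided, with 532 up (3.55%) and 535 down (3.57%) of 14997, or 7.11% in all, whereas TUs without a symbol had 79 up (0.587%) and 491 down (3.65%) of 13462, or 4.23% in all. The median log2 fold change was 0.024 over genes and -0.171 over TUs without a symbol. The share of falls among all calls, 62.7%, was 72.7% with total counts as scaling, 49.8% in DESeq2 and 41.9% when only the 4 libraries compared entered the fit. The balance among genes moved with it, to 418 up and 699 down with total counts, 628 and 416 in DESeq2, and 1561 and 669 with only the 4 libraries.

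**Figure D1:**
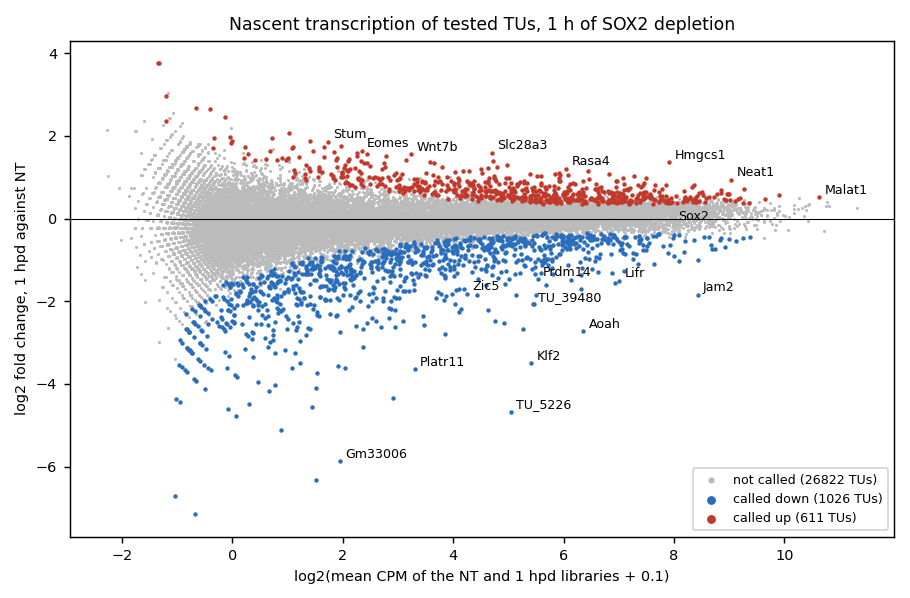
Log2 fold change at 1 hpd against NT (y axis) of each tested TU against log2 of its mean CPM over the NT and 1 hpd libraries plus a pseudocount of 0.1 (x axis), in grey where not called, red where called up and blue where called down, with some TUs named (TU_5226 stands for transcribed-unit_5226). The 1026 blue points reach farther from 0 than most of the 611 red ones, and Sox2 lies near 0 (-0.12).

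Fewer TUs were called when 1 of the 4 libraries compared was left out, which leaves a single library in its group. A call lost in this way need not have rested on the library left out. Leaving out NT replicate 2 left 208 up and 453 down, leaving out 1 hpd replicate 1 left 231 and 423, leaving out 1 hpd replicate 2 left 213 and 491, and leaving out NT replicate 1 left 413 and 777. A set of 134 rises and 325 falls was called in all of these 4 fits and in the full one. Where the call of a named TU was lost when 1 of these 4 libraries was left out, any adjusted p given for it is the highest it reached. Many of these calls were also lost without another of the 4 libraries. Leaving out a library of 0.5 or 6 hpd, which enters the comparison through the common spread, the scaling and the count filter, ended the calls of Ncoa3, Sall4, Arhgef2, Tcf7l1, transcribed-unit_14838, Ctgf, Ak9, transcribed-unit_23096, Odc1, Mirg, Mylip, Myh9, Npcd, Rarg, Nfkbiz and Cdkn1a. Other settings that ended calls were DESeq2 (Arhgef2, transcribed-unit_14838, Plagl1, Ctgf, Ak9, transcribed-unit_23096, Mirg, Mylip, Npcd and Dusp5), RLE scaling (Sall4, Arhgef2, Abca1, Tcf7l1, Ccnd1, Mirg and Npcd), total counts as scaling (Id1, Pmvk, E2f2, Mvk, Mlxipl, Smad3, Npc2, Myh9, Rarg, Nfkbiz, Cdkn1a, Dusp5 and Flna), a mean of at least 50 fragments (Ccnd1, Cdkn1a and Malat1) and no count filter (Sall4, Arhgef2, Abca1, transcribed-unit_14838, Ctgf, Ak9, Odc1, Mirg, Mylip, Npcd, Rarg and Nfkbiz).

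Among 23 core and naive pluripotency factors, 9 fell, 1 rose and the median log2 fold change was -0.29. Klf2, a Krüppel-like factor that sustains naive pluripotency, fell the most. Its TU (chromosome 8, 72318948 to 72329182, plus strand, GRCm38) had 76.9 and 79.1 CPM in the NT libraries and 6.46 and 7.29 CPM at 1 hpd, a 11.3-fold fall (log2 fold change -3.50 ± 0.14, adjusted p 1.9e-09). Nr0b1, an orphan nuclear receptor that interacts with OCT4, went from 22.4 and 29.9 to 6.65 and 5.75 CPM (log2 fold change -2.08 ± 0.18, adjusted p 6.9e-06). In both genes the 1 hpd replicates lay far below the NT replicates, which were close together for Klf2 and farther apart for Nr0b1.

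Prdm14, a repressor of differentiation genes and of DNA methyltransferases, went from 62.9 and 72.7 to 24.4 and 24.6 CPM (log2 fold change -1.47 ± 0.11, adjusted p 2.4e-06). Both of its 1 hpd values lay below both NT values, with the 1 hpd replicates close together. Klf4 fell from 102 and 119 to 51.2 and 63.5 CPM (log2 fold change -0.95 ± 0.17, adjusted p 0.0031), and Klf5 from 358 and 421 to 260 and 284 CPM (log2 fold change -0.52 ± 0.11, adjusted p 0.0087). Further falls were those of Dppa5a (-1.04 ± 0.16, adjusted p 0.0012), the cell-cycle factor Mybl2 (-0.74 ± 0.11, adjusted p 7.5e-04) and Sall4 (-0.37 ± 0.10, adjusted p 0.049). Ncoa3, a nuclear receptor co-activator that works with ESRRB, was the factor of the list that rose, from 523 and 526 to 685 and 687 CPM (log2 fold change 0.39 ± 0.11, adjusted p 0.045). The calls lost on leaving out a library were those of Klf4 (0.072 without NT replicate 2), Klf5 (0.16 without 1 hpd replicate 1), Sall4 (0.31 without 1 hpd replicate 1) and Ncoa3 (0.27 without 1 hpd replicate 1).

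The partner of SOX2 and several central factors of the network were not called. Pou5f1 had 151 and 166 CPM in the NT libraries and 127 and 133 CPM at 1 hpd (log2 fold change -0.29 ± 0.11, adjusted p 0.15). Nanog gave -0.22 ± 0.11, adjusted p 0.28, Esrrb -0.29 ± 0.11, adjusted p 0.15, Tfcp2l1 -0.16 ± 0.11, adjusted p 0.47, Zfp42 0.06 ± 0.12, adjusted p 0.82 and Tbx3 -0.44 ± 0.12, adjusted p 0.051, and none of these passed the test, though the change of Tbx3 was larger than the called fall of Sall4. Of the whole list 20 of 23 factors lay below 0, 13 fell at an unadjusted p under 0.05, and 13 were called down with only the 4 libraries in the fit or with total counts as scaling. Summed over the list, transcription was 9540 and 10400 CPM in NT and 8770 and 9330 CPM at 1 hpd, so the groups did not overlap, but the gap between them was smaller than that between the NT replicates.

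**Figure D2:**
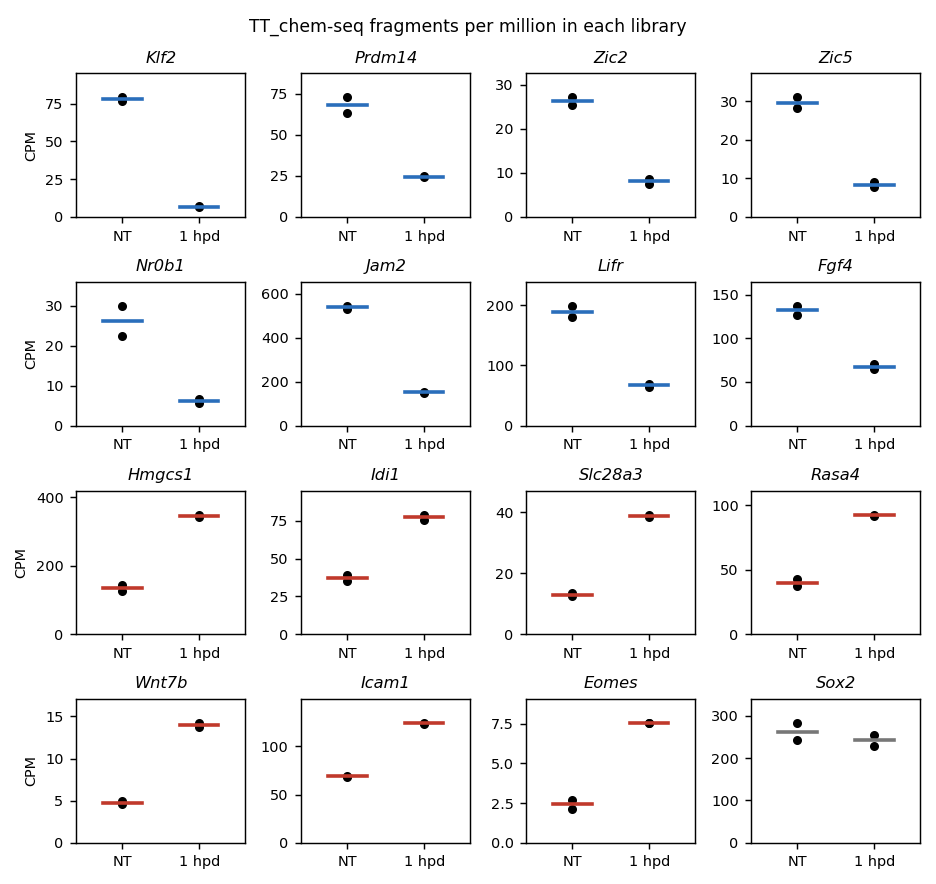
CPM (y axis, linear and from 0, with a scale of its own in each panel) of 16 named genes in each NT and each 1 hpd library, with a point for each library and a bar at the mean of the group, blue for called falls, red for called rises and grey for Sox2, which was not called. Apart from Sox2, both 1 hpd points of each gene lie on the same side of both NT points, below for Klf2 (6.46 and 7.29 against 76.9 and 79.1) and above for Hmgcs1 (350 and 342 against 143 and 127).

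The stem cell markers and known SOX2-OCT4 targets had 9 falls and 2 rises among 24 tested, with a median of -0.32. Jam2, a junctional adhesion molecule, fell from 531 and 545 to 151 and 150 CPM (log2 fold change -1.84 ± 0.13, adjusted p 7.1e-07). Spp1, which encodes the secreted protein osteopontin, went from 187 and 198 to 74.9 and 85.3 CPM (log2 fold change -1.26 ± 0.11, adjusted p 5.6e-06), and Spic, an ETS family factor, from 51.5 and 59 to 12.7 and 17.8 CPM (log2 fold change -1.86 ± 0.23, adjusted p 2.0e-04). Fgf4, a growth factor with a classical SOX2-OCT4 enhancer, had 137 and 127 CPM in the NT libraries and 64.9 and 70.2 CPM at 1 hpd (log2 fold change -0.97 ± 0.13, adjusted p 3.5e-04). Further falls were those of the Nodal inhibitor Lefty1, the chromatin protein Utf1, the adhesion molecule Pecam1 (-0.93 ± 0.13, adjusted p 4.0e-04), Dppa2 (-0.64 ± 0.13, adjusted p 0.0077, 0.12 without 1 hpd replicate 2) and Gdf3. The adhesion molecule E-cadherin (Cdh1) rose from 388 and 347 to 565 and 558 CPM (log2 fold change 0.61 ± 0.12, adjusted p 0.0044), as did the small GTPase Mras from 236 and 212 to 359 and 347 CPM (log2 fold change 0.65 ± 0.10, adjusted p 0.0013). The call of Cdh1 was lost with an adjusted p of 0.073 without NT replicate 2.

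Genes of the primed and formative states, which follow naive pluripotency in the embryo, had 4 falls and no rise in 11 tested, with a median of -0.47. The neighbouring zinc finger genes Zic5 and Zic2 led them, with 28.2 and 31 CPM in the NT libraries and 7.78 and 9 CPM at 1 hpd (log2 fold change -1.82 ± 0.14, adjusted p 2.9e-06) and 27.1 and 25.4 CPM in the NT libraries and 8.59 and 7.57 CPM at 1 hpd (log2 fold change -1.70 ± 0.14, adjusted p 5.6e-06). Otx2, a homeobox factor of the epiblast, went from 8.48 and 9.23 to 3.83 and 4.56 CPM (log2 fold change -1.07 ± 0.20, adjusted p 0.0034), and Utf1 from 11.6 and 17.5 to 6.4 and 6.83 CPM (log2 fold change -1.14 ± 0.21, adjusted p 0.0041). Both 1 hpd libraries lay below NT in all of these genes, as in every called fall. The calls of Otx2 and Utf1 were lost on leaving out a library. Log2 fold changes were then -0.96 for Otx2 without 1 hpd replicate 1 and -0.79 for Utf1 without NT replicate 2.

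LIF reaches STAT3 through a receptor of 2 chains, LIFR and gp130 (Il6st), and called members of this pathway went in both directions. Lifr fell from 199 and 180 to 69.6 and 63.9 CPM (log2 fold change -1.50 ± 0.13, adjusted p 6.2e-06) and Il6st from 221 and 216 to 128 and 130 CPM (log2 fold change -0.76 ± 0.11, adjusted p 6.7e-04). Stat3 rose from 160 and 152 to 216 and 236 CPM (log2 fold change 0.54 ± 0.10, adjusted p 0.0039), and Junb, an early target of the pathway, from 28 and 26.2 to 42.3 and 42 CPM (log2 fold change 0.64 ± 0.12, adjusted p 0.0039). Socs2, a feedback inhibitor of cytokine signalling, fell from 80.2 and 80 to 49.4 and 50.6 CPM (log2 fold change -0.68 ± 0.10, adjusted p 4.0e-04). With Klf4 this made 4 falls and 2 rises among 18 members, and the kinase Jak1 (0.20 ± 0.12, adjusted p 0.41) and the inhibitor Socs3 (0.38 ± 0.19, adjusted p 0.29) did not pass. The rise of Stat3 was lost without 1 hpd replicate 2, at an adjusted p of 0.091.

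FGF ligands act through ERK, which the MEK inhibitor in the medium holds down, and the feedback inhibitors of this pathway were among its rising members. In all 4 members rose and 2 fell of 21 tested, and the median was 0.32. The number of rises ran from 1 on leaving out a 1 hpd library to 10 without 2 hpd replicate 2, and was 7 in DESeq2 and 12 with only the 4 libraries in the fit. Rasa4, a Ras GTPase-activating protein, went from 42.7 and 37.3 to 92.9 and 91.6 CPM (log2 fold change 1.20 ± 0.11, adjusted p 7.0e-06). Smaller rises were those of Spred2 (log2 fold change 0.49 ± 0.11, adjusted p 0.016), Spry1 (log2 fold change 0.43 ± 0.10, adjusted p 0.014) and the ERK phosphatase Dusp5 (log2 fold change 0.88 ± 0.23, adjusted p 0.035), which had only 3.16 and 2.54 to 5.83 and 4.73 CPM. The ETS factor Etv1 fell from 176 and 218 to 108 and 111 CPM (log2 fold change -0.84 ± 0.15, adjusted p 0.0029), in the same direction as the ligand Fgf4. Apart from Rasa4 and Fgf4, these calls were lost on leaving out a library, those of Spry1 and Dusp5 with any of the 4 left out. Log2 fold changes were 0.40 without 1 hpd replicate 2 for Spry1 and 0.72 without 1 hpd replicate 1 for Dusp5. For Spred2 the value was 0.45 without 1 hpd replicate 1, and for Etv1 -0.66 without NT replicate 2.

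In the Nodal pathway, which uses SMAD2 and SMAD3, 3 of 18 tested members fell and 1 rose. Lefty1 fell from 3.57 and 4.36 to 0.878 and 0.968 CPM (log2 fold change -2.09 ± 0.33, adjusted p 0.0013). Foxh1, the DNA-binding partner of SMAD2, went from 23 and 22.7 to 11.5 and 11.2 CPM (log2 fold change -1.01 ± 0.13, adjusted p 2.9e-04), and the ligand Gdf3 from 59.1 and 62.3 to 41.3 and 37 CPM (log2 fold change -0.63 ± 0.11, adjusted p 0.0024). The signal transducer Smad3 rose slightly, from 93 and 82.8 to 117 and 120 CPM (log2 fold change 0.43 ± 0.11, adjusted p 0.026), while the ligand Nodal gave 0.28 ± 0.14, adjusted p 0.33. In the BMP pathway 3 of 15 rose, namely the inhibitor Smad6 from 64 and 57.1 to 99.2 and 99.9 CPM (log2 fold change 0.72 ± 0.11, adjusted p 0.0011), Id2 from 2.96 and 3.56 to 6.59 and 9 CPM (log2 fold change 1.26 ± 0.26, adjusted p 0.0082) and Id1 from 3.84 and 2.83 to 6.65 and 6.04 CPM (log2 fold change 0.92 ± 0.23, adjusted p 0.026). ID proteins bind and block bHLH transcription factors. Calls lost on leaving out a library were those of Gdf3 (0.061 without 1 hpd replicate 2), Smad3 (0.19 without NT replicate 2), Id2 (0.11 without 1 hpd replicate 2) and Id1 (0.21 without NT replicate 2).

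Wnt genes had 1 up and 3 down of 24, and 18 lay above 0, with a median of 0.25 and 9 up at an unadjusted p under 0.05. The rises numbered 8 with only the 4 libraries in the fit and 4 or 5 on leaving out a 2 hpd library. The ligand Wnt7b rose from 4.58 and 4.94 to 13.7 and 14.2 CPM (log2 fold change 1.55 ± 0.16, adjusted p 2.8e-05). Notum, a secreted enzyme that inactivates Wnt ligands, fell from 8.35 and 9.81 to 1.44 and 1.71 CPM (log2 fold change -2.52 ± 0.24, adjusted p 1.9e-05), and the receptor Fzd5 fell from 107 and 118 to 46.7 and 50.8 CPM (log2 fold change -1.21 ± 0.12, adjusted p 1.9e-05). Tcf7l1, a repressor at Wnt targets that limits the pluripotency network, had 531 and 543 CPM in the NT libraries and 406 and 366 CPM at 1 hpd (log2 fold change -0.48 ± 0.12, adjusted p 0.034), a call lost without 1 hpd replicate 2, at an adjusted p of 0.3. Of the Notch list 1 of 12 members fell, the receptor Notch4 (log2 fold change -0.91 ± 0.22, adjusted p 0.02, 0.22 without 1 hpd replicate 2).

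The Hippo pathway restrains the co-activator YAP, and 3 of its 18 members rose and 1 fell. Amotl2, a junction protein that binds YAP, went from 100 and 104 to 161 and 153 CPM (log2 fold change 0.62 ± 0.10, adjusted p 0.0014), and Tead4, a DNA-binding partner of YAP, from 178 and 154 to 258 and 259 CPM (log2 fold change 0.64 ± 0.11, adjusted p 0.0017). The kinase Lats2 rose from 13.9 and 15.6 to 20.8 and 24.1 CPM (log2 fold change 0.61 ± 0.15, adjusted p 0.02), whereas the YAP target Ctgf went from 7.27 and 7.56 to 4.77 and 4.16 CPM (log2 fold change -0.73 ± 0.19, adjusted p 0.038). The calls of Lats2 (0.22 without 1 hpd replicate 2) and Ctgf (0.28 without 1 hpd replicate 2) were lost on leaving out a library. In the list of cytoskeletal genes driven by SRF and its co-activator MRTF, 5 of 15 rose and none fell, with a median of 0.29. The rises were those of Tuft1 (log2 fold change 0.77 ± 0.11, adjusted p 6.1e-04), Tagln2 (log2 fold change 0.68 ± 0.14, adjusted p 0.0069), vinculin (Vcl, log2 fold change 0.62 ± 0.13, adjusted p 0.0084), filamin A (Flna, log2 fold change 0.38 ± 0.10, adjusted p 0.031) and the myosin Myh9 (0.35 ± 0.10, adjusted p 0.041). Leaving out a library raised the adjusted p of Tagln2 (0.092 without 1 hpd replicate 1), Vcl (0.12 without 1 hpd replicate 1), Flna (0.27 without 1 hpd replicate 1) and Myh9 (0.28 without 1 hpd replicate 2).

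Cholesterol synthesis had the largest share of called members among the 48 lists. Of 23 enzymes tested, 20 rose and none fell, with a median log2 fold change of 0.70, and 13 to 17 rose when 1 of the 4 libraries was left out. The rises ran through the pathway, from Acat2 (0.66 ± 0.12, adjusted p 0.0041, 0.075 without 1 hpd replicate 1) and the synthase Hmgcs1 to the late step by Dhcr7 (0.90 ± 0.13, adjusted p 4.9e-04). Hmgcs1 had 143 and 127 CPM in the NT libraries and 350 and 342 CPM at 1 hpd (log2 fold change 1.36 ± 0.13, adjusted p 1.3e-05). Idi1, the isomerase that makes the second isoprenoid building block, rose from 38.8 and 35 to 79.1 and 75.6 CPM (log2 fold change 1.07 ± 0.10, adjusted p 2.0e-05). Lss, which closes the sterol rings, went from 58.6 and 49.6 to 124 and 116 CPM (log2 fold change 1.15 ± 0.13, adjusted p 8.3e-05), and Fdft1, the squalene synthase, from 123 and 113 to 204 and 210 CPM (log2 fold change 0.81 ± 0.10, adjusted p 1.6e-04). No enzyme with a call had an NT library as high as either 1 hpd library, which was so for every called rise. The members outside the call were Ggps1 (-0.05 ± 0.13, adjusted p 0.87), which makes a lipid anchor for proteins rather than sterol, Tm7sf2 (0.27 ± 0.15, adjusted p 0.38) and Ebp (-0.09 ± 0.14, adjusted p 0.77).

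Other genes that answer to sterols had 7 rises and 2 falls among 19. Insig1, which retains the sterol sensor SCAP in the endoplasmic reticulum, rose from 89.3 and 82.1 to 166 and 157 CPM (log2 fold change 0.91 ± 0.12, adjusted p 2.2e-04), and Lpin1, a phosphatidate phosphatase, from 114 and 128 to 225 and 254 CPM (log2 fold change 0.98 ± 0.11, adjusted p 5.3e-05). The transcription factor gene Srebf2 (0.48 ± 0.10, adjusted p 0.0087), Stard4 and Npc2 (0.39 ± 0.10, adjusted p 0.028) also rose. The genes that fell, the cholesterol exporter Abca1 (log2 fold change -0.43 ± 0.11, adjusted p 0.035) and the ubiquitin ligase gene Mylip (log2 fold change -0.45 ± 0.12, adjusted p 0.032) are known targets of the LXR receptors, which oxysterols activate. Of these, Insig1 and Lpin1 kept the call without any single library, and the others lost it (Srebf2 (0.1 without 1 hpd replicate 1), Stard4 (0.088 without NT replicate 2), Npc2 (0.2 without NT replicate 2), Mylip (0.28 without NT replicate 2) and Abca1 (0.27 without 1 hpd replicate 1)). In fatty acid synthesis 3 of 15 rose, the desaturases Scd1 (log2 fold change 0.54 ± 0.12, adjusted p 0.013) and Scd2 (log2 fold change 0.44 ± 0.11, adjusted p 0.023) and the elongase Elovl6 (log2 fold change 0.47 ± 0.11, adjusted p 0.023). Scd2 and Elovl6 lost the call on leaving out any of the 4 libraries, and Scd1 on leaving out any of 3 of them.

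Among the genes with the smallest p were a pair of nucleoside transporters. Slc28a3, a sodium-coupled nucleoside transporter, rose from 12.5 and 13.4 to 38.4 and 39.2 CPM (log2 fold change 1.58 ± 0.13, adjusted p 4.0e-06) and had the smallest p of any rising gene. Slc28a1, a transporter of the same family for pyrimidine nucleosides, fell from 47.9 and 43.5 to 16.7 and 13.6 CPM (log2 fold change -1.59 ± 0.14, adjusted p 7.0e-06). Upp1, the uridine phosphorylase, which is in no list, fell from 188 and 177 to 65.6 and 57.5 CPM (log2 fold change -1.57 ± 0.13, adjusted p 4.0e-06). Transcripts are labelled here with a uridine analogue, and whether uptake or use of 4SU differed between the groups was not tested. Over the list of transporters for nucleosides, amino acids and glucose 3 of 28 rose, including the glutamate carrier Slc1a1 (log2 fold change 0.56 ± 0.10, adjusted p 0.0032) and the amino acid carrier Slc38a4 (log2 fold change 0.52 ± 0.10, adjusted p 0.0062), and 2 fell, including the arginine carrier Slc7a3 (log2 fold change -0.86 ± 0.15, adjusted p 0.0022). The calls of Slc1a1 (0.073 without 1 hpd replicate 2) and Slc38a4 (0.085 without 1 hpd replicate 2) were lost on leaving out a library.

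Beyond the lists, the rising genes with the smallest p included several of unlike function. Adgrg1, an adhesion G protein-coupled receptor, rose from 30.2 and 29.7 to 60.1 and 62 CPM (log2 fold change 1.03 ± 0.11, adjusted p 4.9e-05), and Neil2, a DNA glycosylase of base excision repair, from 101 and 79.9 to 177 and 182 CPM (log2 fold change 0.99 ± 0.11, adjusted p 8.9e-05). Lrrfip1, a nucleic acid-binding protein, went from 14.3 and 13.1 to 30.3 and 32.1 CPM (log2 fold change 1.19 ± 0.14, adjusted p 1.2e-04) and the non-coding Gm38876 from 58.9 and 60.2 to 119 and 112 CPM (log2 fold change 0.96 ± 0.12, adjusted p 1.4e-04). These 4 kept the call without any single library. The TU of Neil2 abuts that of the cholesterol gene Fdft1 on the same strand, where the authors split a run of transcription at a gene start, so these rises are not independent.

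Among genes with a mean of at least 50 fragments over the libraries, several of the largest fold rises were in genes with a few CPM. Stum, named after a mechanosensory gene of the fly, had 1.62 and 1.16 CPM in the NT libraries and 4.89 and 5.24 CPM at 1 hpd (log2 fold change 1.86 ± 0.25, adjusted p 3.0e-04). Rph3a, a RAB3 effector on synaptic vesicles, rose from 1.55 and 1.31 to 4.08 and 5.35 CPM (log2 fold change 1.72 ± 0.28, adjusted p 0.0013), and Prima1, the membrane anchor of acetylcholinesterase, from 1.62 and 1.82 to 4.64 and 5.81 CPM (log2 fold change 1.61 ± 0.26, adjusted p 0.0013). Gfra2, the receptor for neurturin, went from 2.63 and 2.03 to 7.53 and 6.61 CPM (log2 fold change 1.59 ± 0.22, adjusted p 3.7e-04), and the secreted protein gene Crispld2 from 2.56 and 2.83 to 7.59 and 8.43 CPM (log2 fold change 1.57 ± 0.21, adjusted p 3.0e-04). All of these kept the call without any single library, and their replicates at 1 hpd lay above NT, as in every called rise.

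Several of the strongest falls lay outside the pluripotency lists. Aoah, which encodes an enzyme that detoxifies bacterial lipopolysaccharide, fell from 140 and 145 to 22.1 and 21 CPM (log2 fold change -2.73 ± 0.11, adjusted p 1.9e-09). Its TU covered 39.1% of the RefSeq gene. Mroh4, of the HEAT-repeat family, went from 45.4 and 46.3 to 7.34 and 9 CPM (log2 fold change -2.49 ± 0.14, adjusted p 1.3e-07), the planar cell polarity gene Prickle2 from 115 and 128 to 36.8 and 37.3 CPM (log2 fold change -1.72 ± 0.10, adjusted p 1.3e-07), and Cdc42ep3, an effector of the GTPase CDC42, from 36.8 and 44 to 9.35 and 8.09 CPM (log2 fold change -2.21 ± 0.17, adjusted p 2.7e-06). The depleted libraries kept 15.1% of the NT mean at Aoah, 17.9% at Mroh4, 30.4% at Prickle2 and 21.6% at Cdc42ep3.

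Non-coding and uncharacterised genes formed the rest of the strongest falls. 2500002B13Rik fell from 74.1 and 58 to 10.3 and 10.4 CPM (log2 fold change -2.67 ± 0.15, adjusted p 1.3e-07), Rsf1os1, a transcript named for its position opposite Rsf1, from 19.3 and 17.4 to 3.2 and 3.87 CPM (log2 fold change -2.37 ± 0.19, adjusted p 3.9e-06), and Panct2, a non-coding RNA named for its association with pluripotency, from 15.2 and 13.2 to 2.45 and 2.68 CPM (log2 fold change -2.47 ± 0.22, adjusted p 7.0e-06). Gm36038 went from 167 and 170 to 69.5 and 65.9 CPM (log2 fold change -1.32 ± 0.11, adjusted p 5.4e-06), Gm41458 from 11.8 and 12 to 2.32 and 2.16 CPM (log2 fold change -2.41 ± 0.20, adjusted p 5.4e-06) and 1700097N02Rik from 8.41 and 11.8 to 1.25 and 2.33 CPM (log2 fold change -2.48 ± 0.35, adjusted p 4.0e-04). Gm33006 had the largest fitted fall of any named gene, from 6.66 and 8.14 to 0.125 and 0.114 CPM (log2 fold change -5.87 ± 0.38, adjusted p 4.1e-07). Its depleted libraries held 2 and 2 fragments, against 99 and 112 in NT, so the size of the change depends on the prior count of the fit, and its TU covered 11.3% of the RefSeq gene. Of the 2023 tested TUs that RefSeq gives as long non-coding RNA 34 rose and 110 fell (1.68% and 5.44%), and of 12115 protein-coding ones 488 rose and 396 fell (4.03% and 3.27%).

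Among the Platr RNAs, long non-coding RNAs named for their association with pluripotency, 5 of 14 fell and none rose, and the others were not called, with log2 fold changes from -0.23 (Platr27) to 0.46 (Platr22). Platr11 went from 17 and 19.1 to 1.51 and 1.37 CPM (log2 fold change -3.65 ± 0.21, adjusted p 1.3e-07), with 7.97% of the NT mean left. Its TU covers 9.15% of the annotated gene. Platr10 fell from 98.7 and 108 to 32.6 and 41.4 CPM (log2 fold change -1.48 ± 0.14, adjusted p 2.0e-05), Platr6 from 11 and 14.3 to 4.14 and 4.67 CPM (log2 fold change -1.52 ± 0.18, adjusted p 1.4e-04), Platr26 from 9.22 and 10.7 to 3.76 and 4.5 CPM (log2 fold change -1.26 ± 0.23, adjusted p 0.0031, 0.056 without 1 hpd replicate 1) and Platr9 by a log2 fold change of -1.46 ± 0.28, adjusted p 0.0052 (0.095 without NT replicate 2). Of 23 other named long non-coding RNAs, the nuclear RNAs Neat1 and Malat1 were the called members and both rose. Neat1, the scaffold of paraspeckles, had 339 and 382 CPM in the NT libraries and 636 and 738 CPM at 1 hpd (log2 fold change 0.93 ± 0.12, adjusted p 2.8e-04), and Malat1 1220 and 1390 CPM in the NT libraries and 1810 and 1920 CPM at 1 hpd (log2 fold change 0.51 ± 0.12, adjusted p 0.023). The call of Malat1 was lost without 1 hpd replicate 2 at 0.22.

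The primary transcript of the miR-302 and miR-367 cluster, microRNAs that are abundant in pluripotent cells, also fell. Its TU (Mir302b;Mir302c;Mir302a;Mir302d;Mir367, chromosome 3, 127544913 to 127549233, plus strand) had 17.1 and 28.3 CPM in the NT libraries and 4.7 and 7.69 CPM at 1 hpd (log2 fold change -1.86 ± 0.34, adjusted p 0.0034). Both depleted libraries lay below both NT libraries, but the replicates of each group were wide apart, and the call was lost without 1 hpd replicate 1 and without NT replicate 2. This TU is named after its values were seen. The mature 3p sequences of 4 of its 5 microRNAs, from RefSeq (GRCm38) and without miR-302a-3p, show how these group by seed, with the seed at bases 2 to 8 in capitals:
mmu-miR-302b-3p: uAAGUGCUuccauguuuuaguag
mmu-miR-302d-3p: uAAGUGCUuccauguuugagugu
mmu-miR-302c-3p: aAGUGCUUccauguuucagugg
mmu-miR-367-3p: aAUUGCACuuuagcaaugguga
The first and second share the seed AAGUGCU, the third carries the same letters shifted by a base, and miR-367 has a seed of its own. The libraries measured the primary transcript and not these products.

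Stress and early-response genes had calls in both directions. Among AP-1 and immediate early genes 4 rose and 2 fell of 19, or 21.1% and 10.5%, beside 3.55% and 3.57% of all genes. Atf3, a stress-induced ATF/CREB factor, rose from 13.2 and 10.7 to 25.8 and 27.7 CPM (log2 fold change 1.16 ± 0.14, adjusted p 1.3e-04), Zfp36, which destabilises AU-rich mRNAs, from 8.21 and 7.41 to 15.4 and 13.7 CPM (log2 fold change 0.89 ± 0.16, adjusted p 0.0039), and Csrnp1 from 43.5 and 36.5 to 59.4 and 63 CPM (log2 fold change 0.61 ± 0.12, adjusted p 0.0044). Arc, a synaptic immediate early gene, fell from 8.08 and 6.98 to 2.51 and 1.99 CPM (log2 fold change -1.74 ± 0.27, adjusted p 0.0011) and Klf6 from 31.2 and 31.9 to 22.1 and 20.2 CPM (log2 fold change -0.58 ± 0.13, adjusted p 0.018). NF-kB targets had 3 rises (17.6%) and no fall in 17, led by the adhesion molecule Icam1 from 68.6 and 69.6 to 124 and 123 CPM (log2 fold change 0.84 ± 0.10, adjusted p 1.1e-04) and by Zc3h12a, an RNase that cleaves inflammatory mRNAs, from 20.3 and 16.1 to 45.2 and 44.1 CPM (log2 fold change 1.29 ± 0.14, adjusted p 5.4e-05). Irf1, of the interferon list, rose from 36.8 and 33.3 to 52.2 and 58.6 CPM (log2 fold change 0.66 ± 0.14, adjusted p 0.008). The calls of Zfp36, Csrnp1, Klf6, Nfkbiz and Irf1 were lost on leaving out a library, those of Klf6 and Nfkbiz with any of the 4 left out.

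In other stress programmes the called members were few. No member of the ATF4 list (23 tested) was called in the edgeR fit over all groups or in DESeq2, with 0 up and 3 down at an unadjusted p under 0.05, and the same held for heat shock genes (16 tested, 2 up and 1 down unadjusted). Each list had 1 fall with only the 4 libraries in the fit, with total counts as scaling, with a mean of at least 50 fragments or without 2 hpd replicate 1. In the unfolded protein response 1 of 17 rose, the chaperone Hsp90b1 (log2 fold change 0.45 ± 0.11, adjusted p 0.02), while 16 lay above 0, with a median of 0.21. Its rises numbered 3 in DESeq2 and 4 with only the 4 libraries in the fit, and its summed level was 1620 and 1420 CPM in NT and 1900 and 1820 CPM at 1 hpd, without overlap. The hypoxia list had Hk1, a hexokinase, up (log2 fold change 0.62 ± 0.11, adjusted p 0.0031), and the NRF2 list had Nqo1 up (log2 fold change 0.56 ± 0.10, adjusted p 0.0034) and Prdx6 down (log2 fold change -0.45 ± 0.10, adjusted p 0.01). Clock genes had Bhlhe40 up (log2 fold change 0.89 ± 0.18, adjusted p 0.0076) and Hlf down (log2 fold change -0.86 ± 0.18, adjusted p 0.0083). Leaving out at least 1 of the 4 libraries ended each of these calls, and leaving out any of the 4 ended that of Prdx6.

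Of 23 genes of the p53 list, the p53 gene itself fell and the cell-cycle inhibitor Cdkn1a rose. Trp53 went from 115 and 107 to 59 and 68.2 CPM (log2 fold change -0.80 ± 0.12, adjusted p 7.2e-04), and Cdkn1a from 137 and 146 to 185 and 237 CPM (log2 fold change 0.57 ± 0.16, adjusted p 0.049). Mycn, the Myc family member of early embryonic cells, fell from 43.1 and 56.4 to 17.1 and 21.9 CPM (log2 fold change -1.35 ± 0.18, adjusted p 3.4e-04), whereas Myc gave -0.66 ± 0.30, adjusted p 0.26. The polyamine enzyme Odc1 fell (log2 fold change -0.40 ± 0.10, adjusted p 0.024) and the glucose-responsive factor Mlxipl rose (log2 fold change 0.55 ± 0.13, adjusted p 0.016). Among cyclins and their inhibitors Cdk6 (log2 fold change 0.52 ± 0.13, adjusted p 0.025), E2f2 (log2 fold change 0.45 ± 0.11, adjusted p 0.02) and Cdkn1a rose and Ccnd1 (log2 fold change -0.63 ± 0.17, adjusted p 0.043) fell, out of 26. Apart from Trp53 and Mycn, these calls were lost on leaving out any of the 4 libraries, or any of 3 of them for E2f2.

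Genes for chromatin regulators were largely uncalled. Of 28 Polycomb genes, Phc1 fell from 174 and 180 to 98.9 and 97.1 CPM (log2 fold change -0.85 ± 0.11, adjusted p 1.7e-04), the PRC1 co-repressor Bcor from 35.6 and 39.7 to 23.1 and 24.7 CPM (log2 fold change -0.65 ± 0.11, adjusted p 0.0024), and the histone-binding Rbbp7 rose from 134 and 153 to 199 and 207 CPM (log2 fold change 0.50 ± 0.11, adjusted p 0.011). The H3K9 methyltransferase Suv39h1 rose from 42.9 and 38.9 to 56.1 and 54.8 CPM (log2 fold change 0.44 ± 0.10, adjusted p 0.016), the only call in its list of 17. No SWI/SNF subunit (21 tested), no DNA methylation gene (16) and no Mediator or co-activator gene (35) was called in the edgeR fit over all groups. With only the 4 libraries in the fit there were 4 rises, then 2 rises and 1 fall, then 7 rises, in that order of lists, and total counts as scaling gave 2 falls of DNA methylation genes. At an unadjusted p under 0.05 these lists had 3 up and 0 down, 1 up and 1 down, and 4 up and 0 down, and DESeq2 called 1 Mediator or co-activator gene and none in the other lists. Calls lost without 1 library were those of Rbbp7 (0.12 without 1 hpd replicate 2), Bcor (0.054 without 1 hpd replicate 1) and Suv39h1 (0.15 without 1 hpd replicate 1).

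Housekeeping lists served as a reference for the scale. None of 48 ribosomal protein genes was called in the edgeR fit over all groups or in DESeq2 (1 fell at an unadjusted p under 0.05), though 47 of them lay below 0, with a median of -0.16. This median rested on a single library, since it was 0.00 without NT replicate 2 and -0.27 without NT replicate 1, and the summed levels overlapped, with 9920 and 11700 CPM in NT and 9520 and 10000 CPM at 1 hpd. The 31 proteasome genes had a median of 0.08 and no call in either tool, with 3 up and 1 down unadjusted and 3 rises with only the 4 libraries in the fit. With total counts as scaling these medians were -0.25 and -0.01.

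The Sox, Klf and Sp, nuclear receptor and imprinted gene lists were counted without a test between them. None of the 7 tested Sox genes was called in the edgeR fit over all groups or in DESeq2, with 1 up and 1 down at an unadjusted p under 0.05, though 1 rose without NT replicate 1. The Klf and Sp family had 5 falls and no rise in 20, adding Klf15 (-0.64 ± 0.15, adjusted p 0.021, 0.2 without 1 hpd replicate 1) and Klf6 to Klf2, Klf4 and Klf5. Among nuclear receptors Ppard (log2 fold change 0.58 ± 0.12, adjusted p 0.0096) and Rarg (log2 fold change 0.40 ± 0.11, adjusted p 0.049) rose beside the fall of Nr0b1. In the imprinted list Mest (log2 fold change 0.89 ± 0.17, adjusted p 0.0046) and Kcnq1 (log2 fold change 0.79 ± 0.17, adjusted p 0.0092) rose and the zinc finger gene Plagl1 (log2 fold change -0.95 ± 0.23, adjusted p 0.024) and the non-coding Mirg (log2 fold change -0.39 ± 0.11, adjusted p 0.046) fell. The calls of Rarg, Plagl1 and Mirg were lost on leaving out any of the 4 libraries, and those of Ppard, Mest and Kcnq1 on leaving out some of them.

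Matrix and adhesion genes had 6 rises and 2 falls in 24. Laminin chains moved in opposite directions. Lama5 rose from 146 and 149 to 246 and 268 CPM (log2 fold change 0.80 ± 0.10, adjusted p 2.2e-04), and Lama1 fell from 61.3 and 58.7 to 30.2 and 28.1 CPM (log2 fold change -1.04 ± 0.11, adjusted p 3.6e-05). Of the integrins, Itga3 rose from 34.6 and 30.3 to 53.9 and 53.8 CPM (log2 fold change 0.73 ± 0.10, adjusted p 4.9e-04) and Itgb5 fell from 86.1 and 86.5 to 50.3 and 53 CPM (log2 fold change -0.74 ± 0.12, adjusted p 0.0015). These 4 laminin and integrin genes kept the call without any single library. A further integrin, Itga5, also rose (log2 fold change 0.57 ± 0.12, adjusted p 0.0083), a call lost on leaving out either of 2 libraries (0.14 without 1 hpd replicate 1), and its TU abuts another called TU on the same strand.

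Markers of differentiated cells gave a handful of calls. Summed over the tested neural markers, transcription was 41.5 and 44.5 CPM in NT and 38.4 and 39.3 CPM at 1 hpd, and over mesendoderm markers 19 and 23 CPM in NT and 18.6 and 19.6 CPM at 1 hpd. Trophoblast markers summed to 78.1 and 76 CPM in NT and 77.3 and 78.4 CPM at 1 hpd. The 9 tested primitive endoderm markers summed to 163 and 164 CPM in NT and 189 and 198 CPM at 1 hpd, higher at 1 hpd without overlap, but were split, with 5 above 0 and 4 below it (median 0.58). Defining markers such as Sox1, T, Foxa2 and Cdx2 were not among the tested TUs. Eomes, a T-box factor of mesendoderm and trophoblast, rose from 2.15 and 2.69 to 7.53 and 7.52 CPM (log2 fold change 1.64 ± 0.20, adjusted p 1.8e-04), and Gata2 rose from 2.02 and 2.83 to 5.64 and 4.95 CPM (log2 fold change 1.13 ± 0.26, adjusted p 0.017). Sparc (log2 fold change 0.65 ± 0.10, adjusted p 0.0011) and Dab2 (log2 fold change 0.91 ± 0.15, adjusted p 0.0015) of the primitive endoderm list rose while Lama1 of the same list fell. Falls were those of Nes, a neural intermediate filament gene (log2 fold change -0.68 ± 0.16, adjusted p 0.016), Gsc (log2 fold change -0.79 ± 0.19, adjusted p 0.021), Krt8 (log2 fold change -1.18 ± 0.27, adjusted p 0.014) and Tfap2a (log2 fold change -1.54 ± 0.36, adjusted p 0.018). In bulk libraries fewer cells of a type and less RNA per cell cannot be told apart. Leaving out a library ended the calls of Nes (0.14 without 1 hpd replicate 2), Gsc (0.23 without NT replicate 2), Gata2 (0.14 without 1 hpd replicate 1), Krt8 (0.25 without NT replicate 2) and Tfap2a (0.16 without NT replicate 2).

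Markers of feeder and blood cells were few among the tested TUs. The 3 tested fibroblast markers summed to 116 and 109 CPM in NT and 130 and 122 CPM at 1 hpd with no call in edgeR or DESeq2 and none at an unadjusted p under 0.05. The 3 tested blood markers summed to 143 and 149 CPM in NT and 28 and 30 CPM at 1 hpd. Nearly all of the NT sum was Aoah, which was 22.1 and 21 CPM of the 1 hpd sum, and the T cell marker Cd4 had 2.22 and 2.4 CPM in the NT libraries and 5.02 and 7.06 CPM at 1 hpd (log2 fold change 1.39 ± 0.26, adjusted p 0.004, 0.074 without 1 hpd replicate 2). The list of 2-cell-like markers had 3 tested members and no call in the edgeR fit over all groups or in DESeq2, with 1 up at an unadjusted p under 0.05 and 1 rise with only the 4 libraries in the fit.

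**Figure D3:**
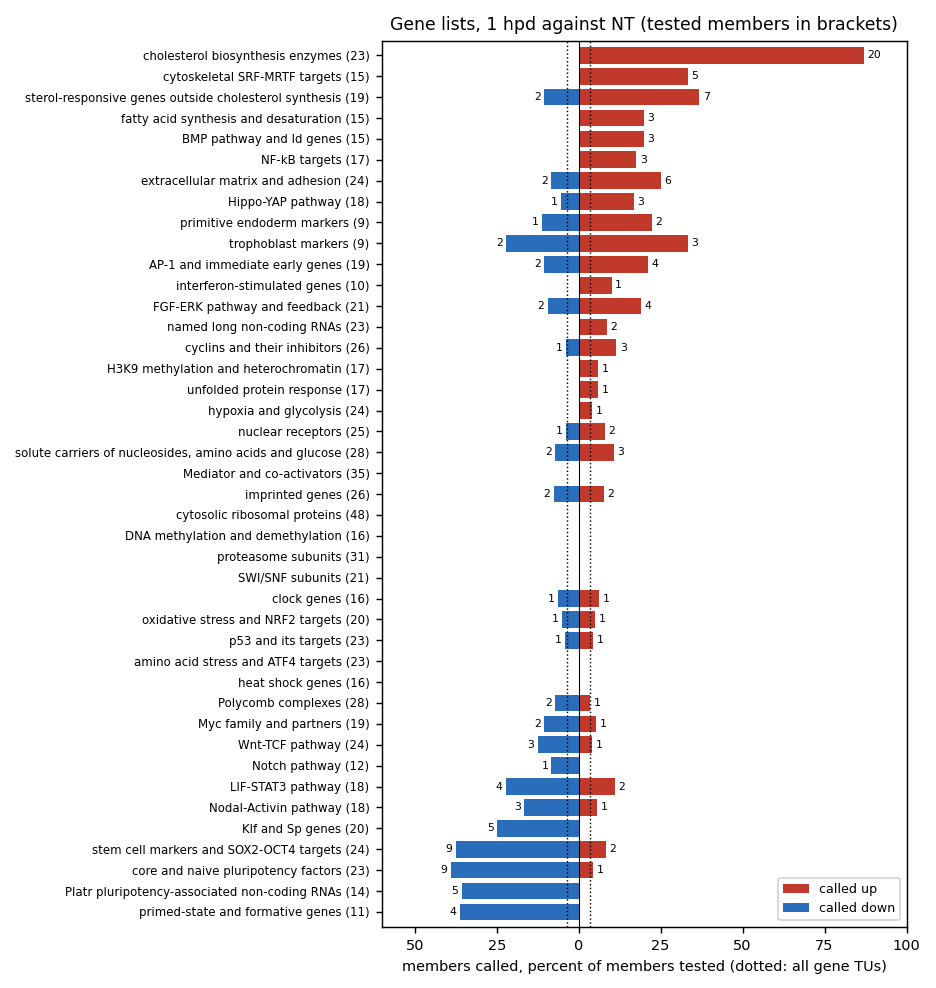
Share of tested members called up (red, to the right) and down (blue, to the left) at 1 hpd, in percent (x axis), for each gene list with at least 9 tested members (rows, with the tested members in brackets and the called members beside each bar), and dotted lines at the shares over all gene TUs (3.55% up and 3.57% down). Cholesterol synthesis has the longest bar (20 of 23 up), and the blue bars are longest in pluripotency lists (9 of 23 core and naive factors).

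TUs without a gene symbol lie between genes or on the strand opposite to them, and many are made at enhancers or upstream of promoters. Of those the authors annotated as extragenic 45 rose and 305 fell of 7793, and of those antisense to a gene body 19 rose and 94 fell of 2831. Antisense TUs at a gene start had 6 up and 64 down of 2244, and at a gene end 9 up and 28 down of 594. In that order 3.91%, 3.32%, 2.85% and 4.71% of these classes fell, beside 3.61% of all TUs. Rises were rarer than over all TUs (2.15%), at 0.577%, 0.671%, 0.267% and 1.52%. These TUs were weakly transcribed, with a median of 18.6 fragments per library against 353 for genes. Of the 10441 with a mean under 50 fragments 17 rose (0.163%) and 296 fell (2.83%). Of the 3021 with a mean of at least 50 fragments 62 rose (2.05%) and 195 fell (6.45%).

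The strongest fall of all, by p, was transcribed-unit_5226, which starts within Top1 and runs in the opposite direction (chromosome 2, 160637513 to 160656258, minus strand). It had 65.2 and 61.3 CPM in the NT libraries and 2.82 and 2.16 CPM at 1 hpd (log2 fold change -4.67 ± 0.17, adjusted p 9.6e-10), 3.94% of the NT mean. The gene it overlaps, the topoisomerase Top1, was not called, at a log2 fold change of 0.40 ± 0.15 (adjusted p 0.17). Another unit antisense to a gene, transcribed-unit_39480, lies opposite Suv39h1 over 24717 bp and fell from 71.2 and 69.3 to 16 and 17.3 CPM (log2 fold change -2.08 ± 0.13, adjusted p 1.7e-07), while Suv39h1 rose (log2 fold change 0.44 ± 0.10, adjusted p 0.016). At other genes both strands fell. Opposite the orexin receptor gene Hcrtr2, transcribed-unit_20265 went from 47.5 and 55.6 to 7.9 and 10.1 CPM (log2 fold change -2.51 ± 0.14, adjusted p 1.3e-07) and Hcrtr2 fell by 2.09 ± 0.40 on the log2 scale (adjusted p 0.0052), a call lost without 1 hpd replicate 1, 1 hpd replicate 2 or NT replicate 2, and opposite the adenylate kinase gene Ak9, transcribed-unit_23094 went from 17.2 and 20.6 to 3.01 and 3.36 CPM (log2 fold change -2.56 ± 0.19, adjusted p 1.4e-06).

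Among extragenic units, transcribed-unit_33864 on chromosome 16 fell from 26.9 and 23.5 to 3.76 and 3.53 CPM (log2 fold change -2.79 ± 0.19, adjusted p 5.9e-07) and transcribed-unit_23620 on chromosome 10 from 38.4 and 33.6 to 11.2 and 12.5 CPM (log2 fold change -1.60 ± 0.13, adjusted p 5.8e-06). The first shares a locus, as defined below, with the called fall of Gm41430, and the second with that of Socs2. The set with the smallest p was completed by transcribed-unit_37151 with 31.2 and 35.8 to 10.5 and 8.26 CPM (log2 fold change -1.84 ± 0.15, adjusted p 5.4e-06) and transcribed-unit_14836 near Eps8 with 65.5 and 72.3 to 28.5 and 27.1 CPM (log2 fold change -1.31 ± 0.11, adjusted p 5.6e-06). All of these kept the call without any single library.

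Over all 201 falling TUs without a symbol that overlapped a gene TU on the other strand, the gene also fell in 71 (35.3%) and rose in 4 (1.99%). Over all 5862 such pairs the gene fell in 5.03% and rose in 6.33%. Of the 31 rising ones the gene rose in 3 and fell in 0. For the 305 falling extragenic TUs the gene with the nearest start fell in 56 (18.4%) and rose in 6 (1.97%), against 4.75% and 4.67% over all 7793 extragenic TUs. Their median distance to that gene, from start to start, was 46.9 kb, against 38 kb over all, so a gene body can lie closer. Units of a shared locus are not independent, and these shares were not tested.

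Of the 79 rises without a symbol, the 8 with the smallest p are described. The smallest p belonged to transcribed-unit_9799 (chromosome 4, 136645844 to 136835737, minus strand), which rose from 34.4 and 33.7 to 62.3 and 61.8 CPM (log2 fold change 0.86 ± 0.10, adjusted p 1.4e-04). Close behind came transcribed-unit_3649, its start 16.6 kb from that of Commd7, from 53.2 and 53.3 to 95.8 and 94 CPM (log2 fold change 0.83 ± 0.10, adjusted p 1.9e-04), and transcribed-unit_8026, from 76.7 and 74.9 to 126 and 130 CPM (log2 fold change 0.76 ± 0.10, adjusted p 2.7e-04). On chromosome 16 transcribed-unit_34581 rose from 20.9 and 22.5 to 39.1 and 46.1 CPM (log2 fold change 0.97 ± 0.13, adjusted p 3.2e-04). The largest fold of these 8 was that of transcribed-unit_7247, at a low level, from 3.77 and 3.71 to 9.85 and 9.11 CPM (log2 fold change 1.34 ± 0.19, adjusted p 4.0e-04). Smaller rises were those of transcribed-unit_17790 (log2 fold change 0.65 ± 0.10, adjusted p 8.1e-04), transcribed-unit_4038 (log2 fold change 0.82 ± 0.12, adjusted p 8.7e-04) and transcribed-unit_17916 (log2 fold change 0.85 ± 0.14, adjusted p 0.0018).

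The sequence around the start of each TU, 250 bases before to 50 after, was searched on both strands for the SOX core ACAANG, the octamer ATGCAAAT bound by OCT4, and a SOX-OCT core, in which TTGT is followed after 1 base by ATGNAAA. The SOX core was in the window of 49.5% of the 1026 falling TUs, 34.2% of the 611 rising TUs and 39.9% of all 28459. GC content differed alike, with medians of 49.7%, 56.7% and 52.3%, and its part in these shares was not tested. The octamer was in 2.92%, 1.96% and 2.23% of the windows. A full composite, in which CNTTGT is followed after 1 base by the whole octamer, was in 0 of 28459 windows.

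The SOX-OCT core shares its letters in part with the SOX core and the octamer, and it was in 36 windows, or 0.126%, of which 6 belonged to falling TUs (0.585%) and 1 to a rising one (0.164%). Because they are so few they are named after their values were seen. They are Pipox (log2 fold change -1.33), Shf (-0.65), LOC108168245 (-0.76), transcribed-unit_10327 (-2.09), transcribed-unit_4326 (-2.04) and transcribed-unit_29314 (-2.35), and the rising gene was Atp2a2 (0.71), the calcium pump of the endoplasmic reticulum. Of these 7, Pipox, a peroxisomal oxidase, and Shf, an adaptor, kept the call without any single one of the 4 libraries. Start windows are shown for the strongest fall and for a pair of falling unannotated units with the SOX-OCT core, read on the strand of the TU, from GRCm38.p6, with each match to the searched motifs in capitals and the TU start possibly off by 1 base:
transcribed-unit_5226 (chr2:160656209-160656508, minus strand): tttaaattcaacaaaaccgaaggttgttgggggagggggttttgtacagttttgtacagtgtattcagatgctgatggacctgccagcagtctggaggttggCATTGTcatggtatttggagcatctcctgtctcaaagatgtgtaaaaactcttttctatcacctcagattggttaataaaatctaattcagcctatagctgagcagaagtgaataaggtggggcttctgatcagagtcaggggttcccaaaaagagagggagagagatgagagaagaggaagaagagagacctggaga
transcribed-unit_10327 (chr5:28209780-28210079, plus strand): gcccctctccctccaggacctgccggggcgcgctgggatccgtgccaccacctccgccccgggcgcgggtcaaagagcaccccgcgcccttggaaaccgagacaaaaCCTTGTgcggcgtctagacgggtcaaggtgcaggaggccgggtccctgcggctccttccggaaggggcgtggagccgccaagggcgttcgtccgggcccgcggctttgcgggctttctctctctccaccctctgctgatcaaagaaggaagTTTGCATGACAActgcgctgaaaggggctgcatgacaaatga
transcribed-unit_4326 (chr2:32860810-32861109, minus strand): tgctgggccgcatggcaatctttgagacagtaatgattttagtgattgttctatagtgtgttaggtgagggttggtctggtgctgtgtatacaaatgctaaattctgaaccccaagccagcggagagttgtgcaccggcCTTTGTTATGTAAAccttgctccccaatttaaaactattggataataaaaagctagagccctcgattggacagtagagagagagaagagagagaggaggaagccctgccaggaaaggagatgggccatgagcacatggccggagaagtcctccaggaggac
The first window holds a SOX core and no octamer or SOX-OCT core. Both of the others hold a SOX core and a SOX-OCT core, which lies on the minus strand relative to the TU in transcribed-unit_10327 and on the plus strand in transcribed-unit_4326. A match of letters is not a site of binding.

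At transcribed-unit_10327, which is divergent from Cnpy1 on chromosome 5, the levels were 1.55 and 2.33 CPM in the NT libraries and 0.314 and 0.569 CPM at 1 hpd (log2 fold change -2.09 ± 0.42, adjusted p 0.0065). Cnpy1 fell as well (log2 fold change -1.47 ± 0.12, adjusted p 6.2e-06), and the neighbouring homeobox gene En2 gave -0.91 ± 0.27, adjusted p 0.06, which was not called. At transcribed-unit_4326 the levels were 1.55 and 1.96 CPM in the NT libraries and 0.502 and 0.342 CPM at 1 hpd (log2 fold change -2.04 ± 0.43, adjusted p 0.01). Both unannotated units lost the call without 1 hpd replicate 1 and without NT replicate 2, transcribed-unit_4326 also without 1 hpd replicate 2, and DESeq2 gave no adjusted p for either.

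Called TUs were grouped into loci by joining those with at most 50 kb between them on either strand. Each locus ends at its outermost called TUs, so the share of its tested TUs that were called is partly set by this rule. The 1637 called TUs fell into 1281 loci, of which 248 held at least 2 (604 TUs together). In 170 of these all members fell, in 49 all rose and in 29 both directions occurred. Falls were the common direction in the larger ones, and 23 loci held at least 4. The authors split runs of transcription at internal gene starts, and 65 of the called TUs abut another called TU on the same strand, in 34 pairs of which 32 moved the same way, so such TUs are not independent units. They include Zbtb24 and Mical1, Gm33719 and Zic2, Dstyk, Rbbp5 and Tmem81, Gm39592 and Prdm14, Ift52 and Mybl2, Athl1 and Ifitm1, and Ifitm5 and Ifitm2.

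The locus with the most calls, on chromosome 10 from 41177222 to 41490395, had 7 falls among 9 tested TUs. It holds Fig4, a lipid phosphatase (log2 fold change -0.63 ± 0.12, adjusted p 0.0039), Ak9 (log2 fold change -0.61 ± 0.16, adjusted p 0.035), the zinc finger gene Zbtb24 (log2 fold change -0.55 ± 0.11, adjusted p 0.0093), the actin-regulating Mical1 (log2 fold change -0.82 ± 0.17, adjusted p 0.0082) and the sphingomyelinase Smpd2 (log2 fold change -1.04 ± 0.23, adjusted p 0.012), with transcribed-unit_23094 and transcribed-unit_23096 (log2 fold change -1.35 ± 0.36, adjusted p 0.04) antisense to them. Of these, transcribed-unit_23094 had the largest change and kept its call without any single library, and the others lost it (Fig4 (0.087 without 1 hpd replicate 2), Ak9 (0.27 without 1 hpd replicate 2), transcribed-unit_23096 (0.37 without 1 hpd replicate 1), Zbtb24 (0.17 without 1 hpd replicate 1), Mical1 (0.091 without 1 hpd replicate 2) and Smpd2 (0.11 without 1 hpd replicate 2)).

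On chromosome 14, from 122181717 to 122487748, the 6 tested TUs from Clybl to Zic2 fell. Besides Zic5 and Zic2 these were Clybl (log2 fold change -0.57 ± 0.12, adjusted p 0.0074), which encodes a mitochondrial enzyme, and the non-coding Gm5089 (log2 fold change -3.33 ± 0.51, adjusted p 8.4e-04), Gm33719 (log2 fold change -1.59 ± 0.26, adjusted p 0.0015) and 2610035F20Rik (log2 fold change -1.57 ± 0.38, adjusted p 0.021). Gm5089 had 26 and 19 fragments in NT and 3 and 2 at 1 hpd, and DESeq2 gave no adjusted p for it or for 2610035F20Rik. A library left out ended the calls of Clybl (0.11 without 1 hpd replicate 2) and 2610035F20Rik (0.2 without 1 hpd replicate 1).

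On chromosome 3, from 88516555 to 88653779, 6 of 7 tested TUs fell. Lamtor2, a subunit of the lysosomal Ragulator complex, went from 69.9 and 84 to 25.2 and 25.6 CPM (log2 fold change -1.60 ± 0.15, adjusted p 1.1e-05), Ubqln4, a proteasome shuttle, from 127 and 128 to 61 and 63.1 CPM (log2 fold change -1.04 ± 0.10, adjusted p 1.1e-05) and Ssr2, a subunit of the translocon-associated complex, from 126 and 133 to 67.4 and 76.2 CPM (log2 fold change -0.85 ± 0.11, adjusted p 1.8e-04). The TUs of Mex3a, Ubqln4, Ssr2 and Arhgef2 abut one after the other on the same strand, as parts of 1 split run, so these 4 of the 6 falls are not independent. The RNA-binding Mex3a (log2 fold change -0.67 ± 0.12, adjusted p 0.0024), Gm38618 (log2 fold change -0.70 ± 0.11, adjusted p 9.3e-04) and Arhgef2 (log2 fold change -0.42 ± 0.11, adjusted p 0.036) fell less, with Mex3a (0.056 without 1 hpd replicate 1) and Arhgef2 (0.25 without NT replicate 1) on leaving out a library.

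The locus on chromosome 6, from 137465392 to 137725306, had falls in 6 of 6 tested TUs. Eps8, an actin-capping adaptor of receptor signalling, fell from 192 and 164 to 121 and 104 CPM (log2 fold change -0.66 ± 0.13, adjusted p 0.0054). The steepest change was in transcribed-unit_13791 (log2 fold change -3.50 ± 0.44, adjusted p 1.8e-04), with 48 and 69 fragments in NT and 3 and 9 at 1 hpd, beside transcribed-unit_14836, transcribed-unit_14837 (log2 fold change -1.75 ± 0.32, adjusted p 0.0033), transcribed-unit_14838 (log2 fold change -1.08 ± 0.30, adjusted p 0.047) and Gm38915 (log2 fold change -1.66 ± 0.24, adjusted p 5.5e-04). Calls lost without 1 library were Eps8 (0.11 without 1 hpd replicate 2), transcribed-unit_14837 (0.073 without 1 hpd replicate 2) and transcribed-unit_14838 (0.24 without 1 hpd replicate 2).

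A further 3 loci held 5 called TUs each. That on chromosome 1, from 132417524 to 132542828, was mixed. The kinase gene Dstyk (log2 fold change -0.83 ± 0.15, adjusted p 0.0027), transcribed-unit_1999 (log2 fold change -0.60 ± 0.14, adjusted p 0.019), Rbbp5, a core subunit of H3K4 methyltransferase complexes (log2 fold change -0.58 ± 0.11, adjusted p 0.0053), and Tmem81 (log2 fold change -0.76 ± 0.19, adjusted p 0.026) fell, while the neuronal adhesion gene Cntn2 rose from 9.15 and 7.27 to 18.2 and 20.6 CPM (log2 fold change 1.24 ± 0.16, adjusted p 2.2e-04). Around Sgk1 on chromosome 10, from 21973622 to 22082844, the kinase gene Sgk1 fell from 406 and 517 to 226 and 236 CPM (log2 fold change -1.0 ± 0.12, adjusted p 1.5e-04) together with Gm2539 (log2 fold change -1.18 ± 0.14, adjusted p 1.4e-04), Gm34267 (log2 fold change -1.50 ± 0.32, adjusted p 0.01), transcribed-unit_22966 (log2 fold change -1.37 ± 0.29, adjusted p 0.0095) and transcribed-unit_22969 (log2 fold change -1.71 ± 0.34, adjusted p 0.0058). Highest values on leaving out a library were Dstyk (0.068 without NT replicate 2), transcribed-unit_1999 (0.25 without 1 hpd replicate 2), Rbbp5 (0.094 without NT replicate 2), Tmem81 (0.4 without NT replicate 2), transcribed-unit_22966 (0.18 without NT replicate 2), transcribed-unit_22969 (0.11 without NT replicate 2) and Gm34267 (0.17 without NT replicate 2).

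The last, on chromosome 15 from 79785877 to 79918134, had 5 falls in 8 tested TUs. Apobec3, a cytidine deaminase that restricts retroviruses, went from 89 and 86.5 to 60.9 and 54.4 CPM (log2 fold change -0.61 ± 0.10, adjusted p 0.0018) and D730005E14Rik from 14.7 and 14.8 to 7.34 and 6.61 CPM (log2 fold change -1.08 ± 0.16, adjusted p 6.7e-04). Npcd (log2 fold change -0.43 ± 0.12, adjusted p 0.044), transcribed-unit_33284 (log2 fold change -1.70 ± 0.32, adjusted p 0.0045) and transcribed-unit_32526 (log2 fold change -0.98 ± 0.12, adjusted p 1.5e-04) completed it. Npcd lost the call on leaving out any of the 4 libraries, and transcribed-unit_33284 and Apobec3 on leaving out some of them, at least 1 each.

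**Figure D4:**
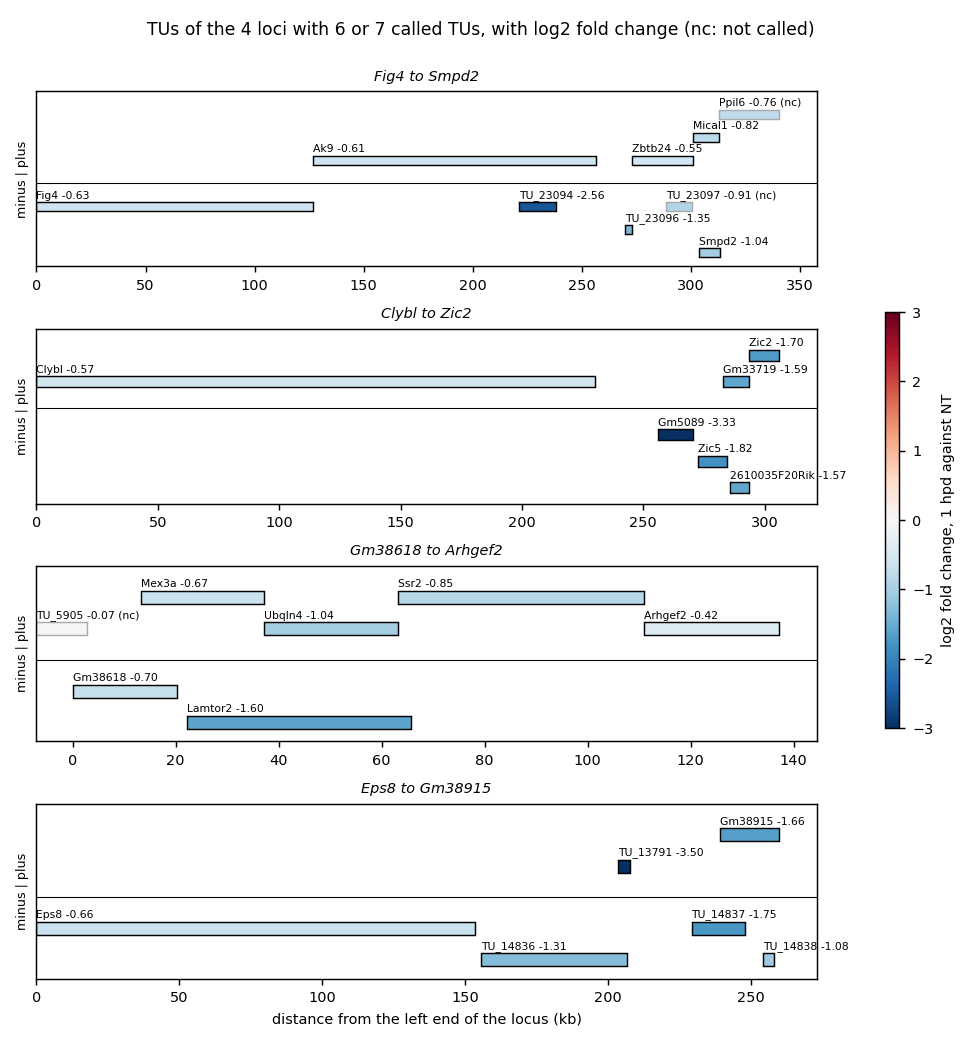
Tested TUs of the 4 loci with 6 or 7 called TUs, drawn to scale as boxes by distance in kb from the left end of the called locus (x axis), plus strand above the line and minus strand below it, with the log2 fold change at 1 hpd against NT as a number and as colour (blue for a fall, the scale ending at -3 and 3) and nc for TUs not called (TU_ stands for transcribed-unit_). All called TUs in these loci lie below 0, down to -3.50 at transcribed-unit_13791.

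Among loci with 4 called TUs, described after their values were seen, 1 on chromosome 4 had only rises, among them Map3k6 (log2 fold change 1.08 ± 0.26, adjusted p 0.019), Wdtc1 (log2 fold change 0.55 ± 0.10, adjusted p 0.0037) and Trnp1 (log2 fold change 1.14 ± 0.24, adjusted p 0.0096). Each of these lost the call without 1 hpd replicate 1 or without 1 hpd replicate 2, and Map3k6 also with total counts as scaling. The others had only falls. Around Prdm14 on chromosome 1 they took in Gm39592 (log2 fold change -1.69 ± 0.30, adjusted p 0.0027) and a pair of units without a symbol, around Klf4 on chromosome 4 Gm34343 (log2 fold change -0.67 ± 0.13, adjusted p 0.0057) and a pair of such units, and around Mybl2 on chromosome 2 the cilium gene Ift52 (log2 fold change -0.51 ± 0.10, adjusted p 0.0051) and Gtsf1l (log2 fold change -0.84 ± 0.18, adjusted p 0.011). Interferon-induced transmembrane genes lie together on chromosome 7, where Ifitm1 (log2 fold change -1.32 ± 0.24, adjusted p 0.0035, lost without 1 hpd replicate 1 or NT replicate 2) and Ifitm2 (log2 fold change -1.26 ± 0.15, adjusted p 1.3e-04) fell with Ifitm5 (log2 fold change -1.21 ± 0.26, adjusted p 0.011) and Athl1 (log2 fold change -1.43 ± 0.18, adjusted p 2.2e-04). The calls of Gm34343, Ift52, Gtsf1l and Ifitm5 were lost without 1 hpd replicate 1 or without 1 hpd replicate 2. Ifitm genes are close paralogs, so reads may have been divided among them.

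Calls were also counted by the length of the gene TU, beside 3.55% up and 3.57% down over all genes. Of 2597 gene TUs under 10 kb 12 rose (0.462%) and 64 fell (2.46%), with a median log2 fold change of -0.145. This was the lowest share of rises of the 4 classes. Of 5742 between 10 and 30 kb 141 rose (2.46%) and 226 fell (3.94%), with a median of -0.039. Of 5122 between 30 and 100 kb 287 rose (5.6%) and 190 fell (3.71%), with a median of 0.106. Of 1536 over 100 kb 92 rose (5.99%) and 55 fell (3.58%), with a median of 0.17. Depth moved with length, from a median of 26.6 fragments per library in the shortest class to 1960 in the longest, and its part in these shares was not tested.

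The 1 hpd values were set against the other times directly for the named TUs. Against 0.5 hpd 20 of 192 named TUs differed, whereas over all 28459 tested TUs 3 were higher and 28 lower at 1 hpd (0.0105% and 0.0984%). The 3 higher ones were cholesterol enzymes, Hmgcs1 (0.81 ± 0.12, adjusted p 0.017), Lss (0.75 ± 0.13, adjusted p 0.036) and Idi1 (0.67 ± 0.10, adjusted p 0.016). Lower at 1 hpd than at 0.5 hpd were Klf2 (-0.92 ± 0.15, adjusted p 0.022), Aoah (-1.82 ± 0.11, adjusted p 1.6e-06), Lifr (-0.83 ± 0.13, adjusted p 0.017) and transcribed-unit_5226 (-2.07 ± 0.18, adjusted p 1.2e-04). Since the named TUs were chosen on the 1 hpd libraries, which these differences share, their number describes the choice as well.

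Between 1 and 2 hpd 6 named TUs differed, each lower at 2 hpd (over all TUs 6 were higher and 56 lower, 0.0211% and 0.197%). Aoah fell further (-1.19 ± 0.12, adjusted p 6.0e-04), as did transcribed-unit_20265 (-1.08 ± 0.17, adjusted p 0.015) and Gm36038 (-0.62 ± 0.11, adjusted p 0.032). Junb (-0.78 ± 0.12, adjusted p 0.011), Amotl2 (-0.54 ± 0.10, adjusted p 0.037) and transcribed-unit_34581 (-1.15 ± 0.13, adjusted p 0.0015) came down from the rise they had at 1 hpd.

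By 6 hpd 52 named TUs differed from 1 hpd (1.96% of all TUs were higher and 2.92% lower). Rises at 1 hpd that were lower at 6 hpd included Hmgcs1 (-1.05 ± 0.13, adjusted p 1.8e-04), Idi1 (-1.15 ± 0.10, adjusted p 1.7e-05), Rasa4 (-1.02 ± 0.10, adjusted p 4.2e-05), Zc3h12a (-1.27 ± 0.14, adjusted p 8.4e-05), Eomes (-1.17 ± 0.19, adjusted p 0.0021) and Crispld2 (-2.92 ± 0.24, adjusted p 9.8e-06). Falls that went on included Platr11 (-1.77 ± 0.35, adjusted p 0.0074), Jam2 (-0.97 ± 0.13, adjusted p 3.2e-04) and transcribed-unit_5226 (-1.88 ± 0.29, adjusted p 0.0012). Lama1 (0.69 ± 0.11, adjusted p 0.0016), Klf6 (0.73 ± 0.13, adjusted p 0.0046) and Mylip (0.61 ± 0.11, adjusted p 0.0053) had fallen by 1 hpd and were higher at 6 hpd, and Stum (1.28 ± 0.19, adjusted p 9.5e-04), Id2 (0.98 ± 0.22, adjusted p 0.017) and Dab2 (1.01 ± 0.14, adjusted p 4.4e-04) rose on.

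**Figure D5:**
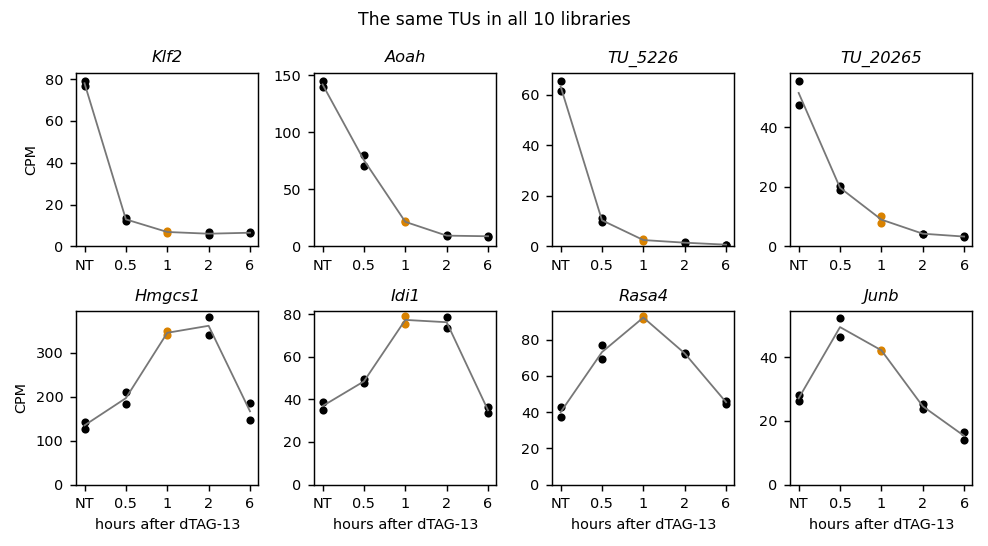
CPM (y axis, linear and from 0, with a scale of its own in each panel) of 8 named TUs in NT and at 0.5, 1, 2 and 6 hpd (x axis, evenly spaced and not to scale), with a point for each library, the 1 hpd libraries in orange and a line through the means (TU_ stands for transcribed-unit_). Klf2, Aoah and both unannotated units fall from NT to 1 hpd, and Hmgcs1, Idi1, Rasa4 and Junb are higher at 1 hpd than in NT and lower at 6 hpd than at 1 hpd.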

How the data were processed

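The deposited table holds raw fragment counts per TU and library, and a second file gives the TUs. To make it the authors mapped reads (BWA 0.7.17-r1188, mm10), removed poorly mapped reads (SAMtools 1.10) and duplicates (Picard 2.12.0), separated alignments by strand, called TUs on pooled libraries, refined their ends, linked them to RefSeq genes and split them at internal gene starts.

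Groups come from sample titles. Here, TUs above 10 fragments in 2 or more of 10 libraries were kept, scaled by TMM, and tested with glmQLFit and glmQLFTest of edgeR 4.0.16 (R 4.3.3, limma 3.58.1), with 5 groups of 2 libraries in the fit, so that all of them set the spread, and Benjamini-Hochberg adjustment over all TUs; a TU with an adjusted p under 0.05 was called. This replaces DESeq2, which the authors used and which served as an alternative (1.42.0). Values after ± are standard errors of the log2 fold change, and CPM values are of single libraries. The 4 libraries held 13053099 to 17704268 fragments and the 10 together 11131490 to 25854106 each, which limits precision at TUs with few fragments. Replicate counts differed by more than sampling noise (chi-square per degree of freedom 4.58 in NT and 2.69 at 1 hpd).

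Named TUs were, per direction, the 15 genes with the smallest p, the 8 genes with the largest change at a mean of at least 50 fragments, the 8 TUs without a symbol with the smallest p and up to 4 called members of each of 48 gene lists, and all called TUs of the 5 loci with the most calls (7 with ties), and Sox2. Members and lists were chosen with earlier results of these data known. Lists got counts and medians and no test. Some named genes are not reported here. RefSeq held 14408 of the 14997 symbols. Start windows were read from GRCm38.p6, the same build as mm10. Alternatives were DESeq2, RLE factors, total counts, other count filters, the 4 libraries alone, the replicate block, other distances and each library left out.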

Additional observations from a re-analysis of the deposited data

Results flagged for a closer look

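Direct comparisons of 1 hpd with another time set apart 78 differences at named TUs, in edgeR's quasi-likelihood test at an adjusted p under 0.05 over all 28459 tested TUs. Values are log2 differences, the later time minus the earlier one. The named TUs were chosen on the 1 hpd libraries, which all of these differences share, so their numbers and directions reflect that choice as well. Over all tested TUs 0.0105% were higher and 0.0984% lower at 1 hpd than at 0.5 hpd. At 2 hpd 0.0211% were higher and 0.197% lower than at 1 hpd, and at 6 hpd 1.96% and 2.92%.

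Between 0.5 and 1 hpd, higher at 1 hpd were Hmgcs1 (0.81), Idi1 (0.67) and Lss (0.75). Lower at 1 hpd were 2500002B13Rik (-1.01), Aoah (-1.82), Cdc42ep3 (-1.21), Gm36038 (-0.75), Jam2 (-0.91), Klf2 (-0.92), Lifr (-0.83), Mroh4 (-1.03), Platr11 (-1.33), Prickle2 (-0.89), Rsf1os1 (-1.09), Upp1 (-0.73), transcribed-unit_20265 (-1.13), transcribed-unit_23094 (-1.12), transcribed-unit_37151 (-0.94), transcribed-unit_39480 (-0.98) and transcribed-unit_5226 (-2.07).

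Between 1 and 2 hpd, lower at 2 hpd were Amotl2 (-0.54), Aoah (-1.19), Gm36038 (-0.62), Junb (-0.78), transcribed-unit_20265 (-1.08) and transcribed-unit_34581 (-1.15).

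Between 1 and 6 hpd, TUs that had risen by 1 hpd and were lower at 6 hpd were Adgrg1 (-0.48), Amotl2 (-0.80), Crispld2 (-2.92), Dusp5 (-1.06), E2f2 (-0.40), Eomes (-1.17), Fdft1 (-0.78), Flna (-0.55), Gfra2 (-1.30), Hmgcs1 (-1.05), Icam1 (-0.83), Id1 (-1.37), Idi1 (-1.15), Insig1 (-0.69), Itga3 (-0.45), Junb (-1.47), Lama5 (-0.84), Lpin1 (-0.59), Lss (-0.92), Mras (-0.44), Neat1 (-0.57), Neil2 (-0.93), Rarg (-0.67), Rasa4 (-1.02), Scd1 (-0.53), Tead4 (-0.46), Zc3h12a (-1.27), transcribed-unit_34581 (-2.64), transcribed-unit_4038 (-0.57) and transcribed-unit_7247 (-1.0). TUs that had fallen by 1 hpd and were lower still at 6 hpd were Ak9 (-0.76), Aoah (-1.27), Ccnd1 (-1.38), Fzd5 (-0.54), Gm2539 (-0.58), Gm36038 (-1.41), Jam2 (-0.97), Mroh4 (-0.86), Platr11 (-1.77), Socs2 (-0.44), Spp1 (-0.47), transcribed-unit_20265 (-1.45), transcribed-unit_39480 (-0.77) and transcribed-unit_5226 (-1.88). TUs that had risen by 1 hpd and were higher still at 6 hpd were Dab2 (1.01), Id2 (0.98), Nqo1 (0.51), Stum (1.28) and transcribed-unit_17916 (0.65), and those that had fallen and were higher at 6 hpd were Klf6 (0.73), Lama1 (0.69) and Mylip (0.61).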

How the results depend on the processing

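Leaving out 1 of the 10 libraries gave 208 to 963 rises and 423 to 1142 falls over all TUs, with the lowest counts without NT replicate 2 and 1 hpd replicate 1 and the highest without 2 hpd replicate 2 and 2 hpd replicate 1. Genes gave 177 to 844 rises and 233 to 600 falls, TUs without a symbol 19 to 119 and 186 to 542, and cholesterol enzymes 13 to 20 rises. With only the 4 libraries compared in the fit there were 1751 rises, 1561 of them genes and 190 TUs without a symbol. Among TUs without a symbol, a mean of at least 50 fragments left 51 rises and 188 falls, total counts as scaling 44 rises, and DESeq2 274 falls. With a gap of 20 kb 15 loci held at least 4 called TUs, and falls downstream of a gene numbered 9 within 5 kb and 36 within 20 kb, against 23 within 10 kb.

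Of 191 called named TUs, 104 kept the call under every alternative that gave a value, 64 lost it only on leaving out a library, and 23 lost it under another setting. Every named TU but Sox2 kept its direction. Sox2, not called, gave 0.02 without NT replicate 2 and -0.21 without NT replicate 1.

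With the replicate number as a block (the replicate block) there were 1441 rises and 1747 falls, 1216 and 870 of them genes and 225 and 877 TUs without a symbol, and 57 named TUs differed between 0.5 and 1 hpd and 12 between 1 and 2 hpd. The block also gave rises of 1 SWI/SNF, 1 DNA methylation and 4 Mediator or co-activator genes and 2 proteasome genes, falls of 1 ATF4 target and of 1 heat shock, 1 Sox and 1 ribosomal protein gene, and 11 rises in the FGF list. Deviations of same-numbered libraries correlated at 0.427 between NT and 1 hpd, at 0.375 to 0.663 among NT, 0.5, 1 and 2 hpd, and at 0.0544 to 0.298 with 6 hpd. Each group has 2 numbers and the labels do not say what a number marks, so the block was kept as an alternative. No named TU lost its call under the block. Depth limits the weakest TUs, for which few fragments lie behind a value.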
